A study of Mus musculus with 24 samples.

Results

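The 34 genes described here are known from monocytes and macrophages that enter inflamed tissue, or encode the superoxide-producing oxidase of phagocytes. They were chosen by name from 49315 genes in the count tables, and all 34 were among the 22280 genes that passed the filter on low counts. By role they comprise 9 genes of blood monocytes, 5 general macrophage genes, 4 genes of lipid-handling and damage-associated macrophages, 4 oxidase subunits, 11 receptors that sense microbes, dying cells or sugars, and 1 antiprotease. Polyadenylated RNA was sequenced from 24 mouse brain tumours in 8 groups of 3. All came from CT-vIII cells placed in the right hemisphere, a single CT-2A glioma line that carries firefly luciferase and variant III of mouse EGFR. Every mouse had fluid infused straight into the tumour by convection-enhanced delivery, at 0.5 µl per hour over 72 h, between days 6 and 9 of tumour growth. The fluid held D2C7-IT+aCD40, D2C7-IT alone, aCD40 alone or vehicle, and tumours were taken 3 days after treatment (day 3) or at its end (day 0). D2C7-IT is an immunotoxin aimed at EGFR and its variant III, given at 0.2 µg. aCD40 is a rat antibody, clone FGK4.5, that activates CD40, and its dose is stated as a range of 10 to 300 µg, so the dose of a given tumour is not known here. Vehicle was 2% mouse serum albumin in saline with 100 µg of rat IgG2a, so the vehicle tumours had been infused too. No source used here gives the strain, age or sex of the mice.

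Classical monocytes leave the blood through the chemokine receptor CCR2 and its ligands CCL2 and CCL7, and in tissue they lose Ly6C and gain macrophage genes. Macrophages that clear dead cells and lipid debris are known for galectin-3, osteopontin and glycoprotein NMB. The phagocyte oxidase joins a membrane pair, encoded by Cybb and Cyba, with cytosolic subunits such as those of Ncf1 and Ncf4, and makes superoxide. In brain tumours such cells lie beside resident microglia, which also carry Adgre1, Cd68, Cd14 and oxidase subunits, so these members do not separate infiltrating from resident cells. Which cells the RNA of the other members came from was not tested.

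Libraries held 24697576 to 48119840 counts, and levels are given as CPM, which are counts scaled to a library total of 1000000. Single tumours stood out within groups. At day 0, 1 aCD40 tumour (replicate 3) was the highest of its group for 34 of 34 members, and 1 vehicle tumour (replicate 1) for 31 of 34. The same tumours had the most cycling tumour markers of their groups, summed to 162 CPM in aCD40 replicate 3 and 22.9 and 32.7 CPM in the other aCD40 tumours, and to 156 CPM in vehicle replicate 1 and 37.6 and 23.7 CPM in the other vehicle tumours. Among the day 3 tumours, 3 libraries stood apart from the other 21, namely vehicle replicates 2 and 3 and aCD40 replicate 1. They held 289 to 357 CPM of Egfr, against 12.9 to 49.6 CPM in the other 21, and their summed cycling markers were 1181 to 1412 CPM, against 22.9 to 162 CPM. Their summed neuron markers were 1290 to 2315 CPM, against 2921 to 6173 CPM elsewhere. The summed members reached 2905 to 4542 CPM in these 3 libraries and 267 to 1569 CPM in the other 21. For 23 members all 3 libraries lay above all the others, for 1 member (Ace) below them, and for 10 they overlapped. The part of the tumour cell share in the members' levels was not tested. Medians of the 34 members are given with and without these libraries, a choice made after the data were seen. For single members this was done only in part. Leaving these libraries out leaves vehicle at day 3 with 1 tumour, which is then assumed to vary like the other groups. In such unsorted tissue, fewer cells of a type and less RNA per cell cannot be told apart.

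**Figure D1:**
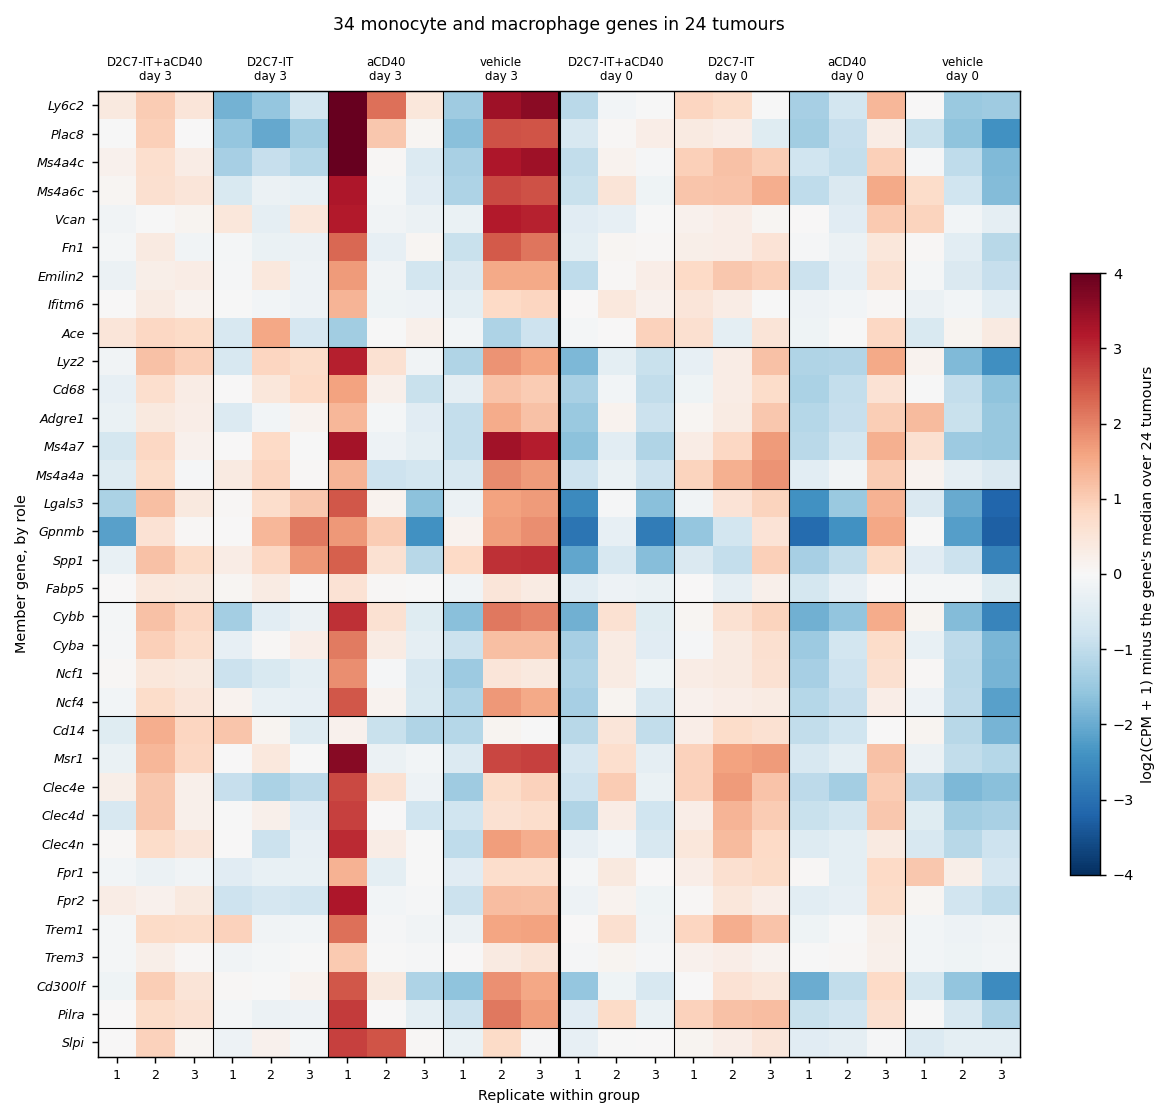
Level of the 34 members in each of 24 tumours, as log2(CPM + 1) minus the median of the gene over all tumours, with colour ending at 4 in either direction. Rows are genes ordered by role and columns are tumours, with day 3 on the left, and vehicle replicates 2 and 3 and aCD40 replicate 1 at day 3 stand out as the 3 columns with high levels of most members.

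Promoters of some of the members named in the results below are shown first. Clec4e, Clec4d and Trem1 are sensing receptors, Ms4a4c a monocyte gene and Cybb the catalytic oxidase subunit. RefSeq, on build GRCm38.p6, gave promoter windows of 250 bases before to 50 bases after the start for 26 of the 34 members, 32 windows in all. PU.1 is a transcription factor of myeloid cells, and capitals mark its core letters GAGGAA, or TTCCTC where the core is on the other strand. All windows shown hold a core, whereas only 14 of the 26 members with a window had one, so they do not stand for the other members. Clec4e lies at chr6:123289822-123290121 on the minus strand, with 2 cores. The window of its neighbour Clec4d is chr6:123261857-123262156 on the plus strand, with 3 cores. Trem1 is at chr17:48232489-48232788 on the plus strand, Ms4a4c at chr19:11407411-11407710 on the plus strand and Cybb at chrX:9469275-9469574 on the minus strand, with 1 core each.
Clec4e: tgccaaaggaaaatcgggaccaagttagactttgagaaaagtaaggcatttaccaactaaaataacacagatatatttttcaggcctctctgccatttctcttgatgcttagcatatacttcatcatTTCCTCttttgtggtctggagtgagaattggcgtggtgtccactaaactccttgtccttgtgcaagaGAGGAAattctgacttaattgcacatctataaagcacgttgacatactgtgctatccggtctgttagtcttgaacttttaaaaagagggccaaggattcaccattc
Clec4d: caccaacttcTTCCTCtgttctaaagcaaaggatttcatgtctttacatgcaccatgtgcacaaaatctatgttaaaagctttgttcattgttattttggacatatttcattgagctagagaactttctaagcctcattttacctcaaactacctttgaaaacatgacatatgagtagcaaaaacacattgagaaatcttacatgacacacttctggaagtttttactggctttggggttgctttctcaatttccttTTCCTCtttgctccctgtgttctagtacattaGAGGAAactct
Trem1: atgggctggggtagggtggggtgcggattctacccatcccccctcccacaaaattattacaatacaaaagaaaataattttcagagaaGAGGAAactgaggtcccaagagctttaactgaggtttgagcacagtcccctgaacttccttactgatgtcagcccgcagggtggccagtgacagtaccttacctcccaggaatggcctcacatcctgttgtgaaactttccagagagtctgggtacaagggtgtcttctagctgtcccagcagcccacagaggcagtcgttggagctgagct
Ms4a4c: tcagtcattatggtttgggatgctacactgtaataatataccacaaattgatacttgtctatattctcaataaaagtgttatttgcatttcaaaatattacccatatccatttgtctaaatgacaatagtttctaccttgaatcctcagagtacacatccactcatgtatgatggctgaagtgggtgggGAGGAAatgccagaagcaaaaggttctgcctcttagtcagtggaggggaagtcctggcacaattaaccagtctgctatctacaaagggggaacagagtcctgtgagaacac
Cybb: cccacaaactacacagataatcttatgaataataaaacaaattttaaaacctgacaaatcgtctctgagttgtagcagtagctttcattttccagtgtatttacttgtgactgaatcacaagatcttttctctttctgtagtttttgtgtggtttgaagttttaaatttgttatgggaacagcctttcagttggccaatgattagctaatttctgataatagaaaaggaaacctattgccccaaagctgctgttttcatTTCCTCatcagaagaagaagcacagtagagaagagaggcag

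The PU.1 core was found, on either strand and with overlaps counted, in 15 of the 32 member windows (46.9%) and in 28.3% of all 32851 RefSeq windows of this length. TTNNGNAA, the letters searched for C/EBP, another factor of myeloid cells, stood in 24 member windows (75.0%) and in 40.7% of all. The longer NF-kB motif was in 9 (28.1%), against 20.7% of all, and TGANTCA, searched for AP-1, in 4 (12.5%), against 7.81% of all. These are matches of letters and are not measured binding sites.

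Per kilobase of exon, Lyz2, which encodes lysozyme of phagocytes, had the highest median level of the members over the 24 tumours, at 117 CPM per kb. Spp1 (osteopontin), Cyba and Cd68 came next, at 31.9, 29.8 and 23.7 CPM per kb. The lowest were the receptors Clec4e, Trem3 and Trem1, at 0.504, 0.127 and 0.0600 CPM per kb, and they were the 3 members with no count in 1 tumour each. The spread over tumours differed greatly between members. Ly6c2 reached 41.2 times its median in its highest tumour and Ms4a4c 21.3 times, whereas Fabp5, a fatty acid carrier, reached 1.5 times. Ly6c2 is nearly identical to Ly6c1, and reads of the pair may have been split or lost in counting, so its values are uncertain. Lyz2 has a close copy in Lyz1. Ncf1, Pilra, Cd300lf and Ms4a6c overlap Gtf2ird2, Zcwpw1, Rab37 and BE692007 on the opposite strand, with median levels of 24.5, 7.08, 2.88 and 2.42 CPM, and the library kit does not mark strand. Pilra itself had a median level of 2.43 CPM and ranged from 0.445 to 23.0 CPM, whereas Zcwpw1 reached at most 9.07 CPM. The part of Zcwpw1 reads in the Pilra counts was not tested.

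At day 0, the end of infusion, the members were mostly higher in D2C7-IT than in vehicle tumours, and the sensing receptors had the largest median difference of the roles. The fitted level was higher in D2C7-IT for 33 of 34 members, with a median log2 fold change of 1.54, against -0.01 over all genes (across comparisons, 46.2 to 54.7% of all genes had a log2 fold change above 0, and their median lay between -0.04 and 0.05). For 21 of 34 members every D2C7-IT tumour lay above every vehicle tumour, which held for 14.1% of all genes. No member passed the test on its own. edgeR's quasi-likelihood test, with p adjusted over all genes by Benjamini-Hochberg and a threshold of 0.05, called 0 of 34 members, and 18 of all genes (0.0808%). An unadjusted p under 0.05 with a higher level was found for 11 members, against 3.61% of all genes, and DESeq2 called 1 member, Clec4e (adjusted p = 0.0023), and 0.595% of all genes. The median of the members was 2.61 when vehicle replicate 1 was left out.

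**Figure D2:**
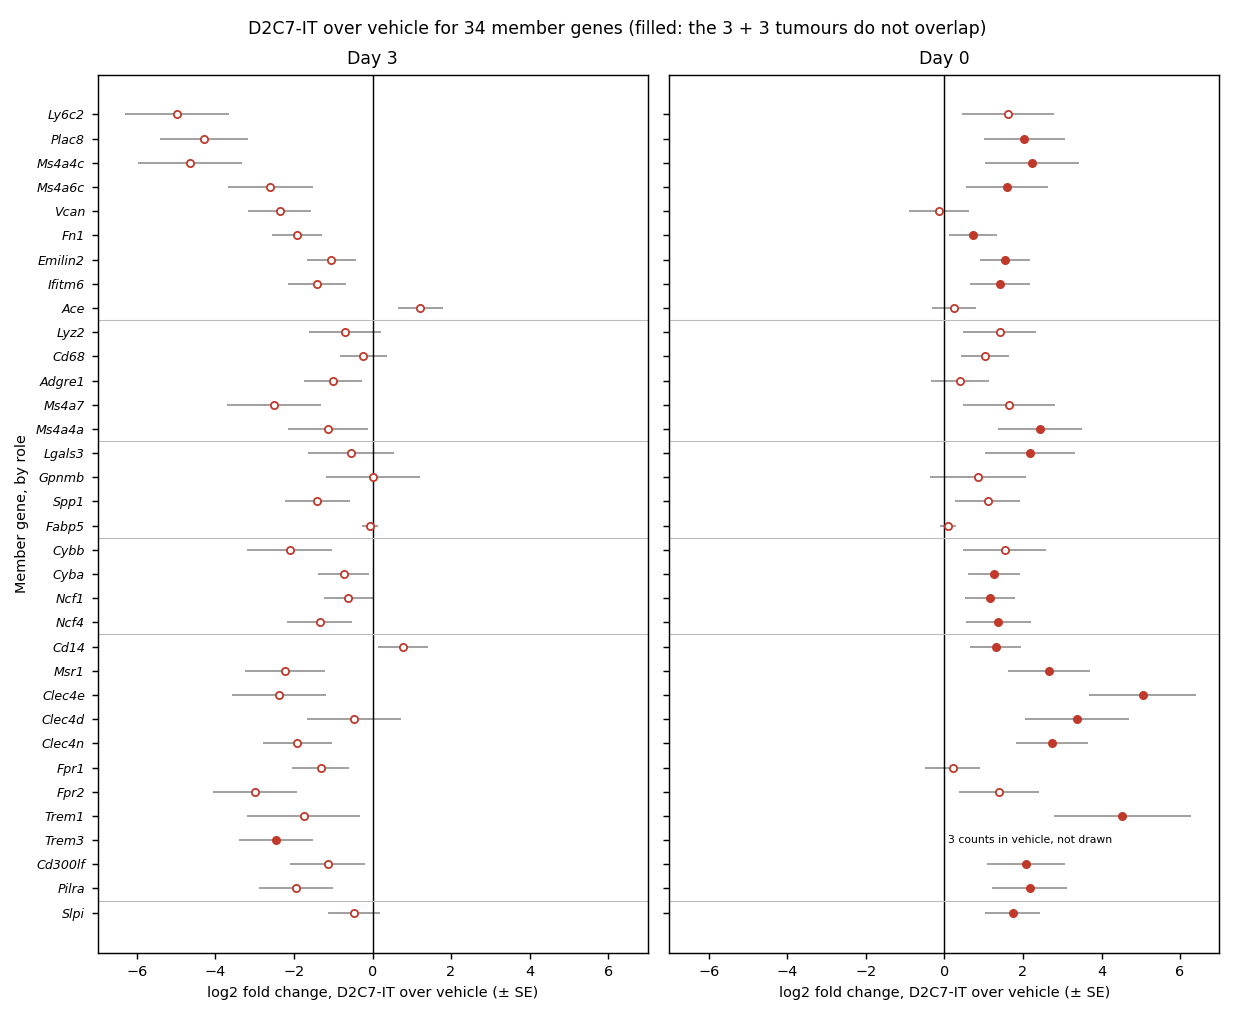
Log2 fold change, D2C7-IT over vehicle, of each member by role, with day 3 on the left and day 0 on the right, and with horizontal bars of 1 SE from the edgeR fit. Filled points mark members whose 3 D2C7-IT and 3 vehicle tumours do not overlap, which are 21 of 34 at day 0 and 1 at day 3. Trem3 is among the 21 but is not drawn at day 0, where vehicle tumours held 3 counts in all.

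Clec4e encodes Mincle, a C-type lectin that senses dead cells and glycolipids. Its level was 5.56, 10.4 and 6.62 CPM in the D2C7-IT tumours, against 0.531, 0 and 0.0810 CPM in the vehicle tumours. The groups did not overlap, and the log2 fold change was 5.04 ± 1.36 (SE, n = 3 each, edgeR adjusted p = 0.32). Values with ± in parentheses after levels are likewise log2 fold changes with their SE from the edgeR fit, with 3 tumours a group. That fit estimates 1 spread per gene over all 24 libraries, so the SE is not the spread of the tumours compared. Its chromosome 6 neighbour Clec4d, a lectin that pairs with Mincle, stood at 2.29, 6.04 and 4.53 CPM in D2C7-IT, against 0.970, 0.0539 and 0.121 CPM in vehicle. Clec4n, the third lectin of this cluster and a receptor for fungal mannans, was at 3.06, 6.04 and 4.06 CPM in D2C7-IT, against 0.878, 0.350 and 0.648 CPM in vehicle. All 3 lectins were thus higher in every D2C7-IT tumour than in any vehicle tumour. For Clec4d and Clec4n the log2 fold changes were 3.37 ± 1.32 and 2.73 ± 0.92 (SE, edgeR adjusted p = 0.89 and 0.67).

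Trem1, an activating receptor that amplifies inflammatory signals of neutrophils and monocytes, had 1.16, 2.26 and 1.62 CPM in D2C7-IT tumours, against 0.0924, 0.0269 and 0.0810 CPM in vehicle tumours. Trem3 beside it on chromosome 17 had 35 counts in the 3 D2C7-IT tumours, against 3 counts in the 3 vehicle tumours. The ratio of the Trem3 counts, set against library totals, was 10.4 with an exact 95% interval of 3.28 to 52.9, which covers counting error only. The other receptors ran the same way with smaller differences. Msr1, a scavenger receptor for modified lipoproteins, stood at 7.25, 12.5 and 13.4 CPM in D2C7-IT, against 2.70, 1.24 and 1.01 CPM in vehicle (log2 fold change 2.67 ± 1.05, adjusted p = 0.89). Cd14, the co-receptor for lipopolysaccharide, was at 17.8, 24.6 and 22.7 CPM in D2C7-IT and 15.8, 6.25 and 3.32 CPM in vehicle. Cd300lf, an inhibitory receptor for lipids of dying cells, held 8.59, 13.2 and 12 CPM in D2C7-IT, against 4.83, 2.18 and 0.648 CPM in vehicle (2.08 ± 0.99). Pilra, a paired inhibitory receptor, was at 5.48, 6.65 and 7.02 CPM in D2C7-IT, against 2.43, 1.19 and 0.445 CPM in vehicle (2.17 ± 0.96). Both groups were separate, though reads of overlapping genes may be included. In all, 9 of the 11 receptors did not overlap between the groups, and their median log2 fold change was 2.67. The exceptions were the formyl peptide receptors Fpr1 and Fpr2, which guide cells to bacterial and mitochondrial peptides. For Fpr1, D2C7-IT tumours held 1.66, 2.47 and 2.81 CPM and vehicle tumours 3.74, 1.62 and 0.405 CPM.

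Several of these receptors are also neutrophil genes, and neutrophil markers differed in the same comparison. Of 10 neutrophil markers tested, 10 were higher in D2C7-IT (median log2 fold change 2.22), and edgeR called 3 of them, a call that none of the 3 kept when any 1 of the 6 tumours was left out (adjusted p = 0.0526 to 0.39). S100a8 averaged 2.00 ± 0.476 CPM in D2C7-IT and 0.141 ± 0.0865 CPM in vehicle tumours (SD, n = 3 each, edgeR adjusted p = 0.035). S100a9 averaged 2.43 ± 0.481 CPM in D2C7-IT and 0.271 ± 0.115 CPM in vehicle (adjusted p = 0.045), and Cxcr2 2.01 ± 0.494 CPM in D2C7-IT and 0.0231 ± 0.0400 CPM in vehicle (adjusted p = 0.045). At day 0 S100a8 and S100a9 were also higher without overlap in aCD40 than in vehicle (log2 fold changes 2.87 ± 0.63 and 1.71 ± 0.55, SE). The same held for D2C7-IT+aCD40 over vehicle (2.69 ± 0.63 and 1.99 ± 0.55). No neutrophil marker tested had a lower fitted level in either comparison, and edgeR called none. The summed neutrophil markers were 45.7 to 48.3 CPM in D2C7-IT and 12.7 to 33.9 CPM in vehicle, while the defining marker Ly6g had 2 counts in the D2C7-IT tumours and 0 in the vehicle tumours. Csf3r made up most of these sums, at 31.7, 30.9 and 35.2 CPM in D2C7-IT and 29.9, 13.1 and 10.4 CPM in vehicle. Markers of macrophages at the brain's borders summed to 53.3 to 82.9 CPM in D2C7-IT and 24.2 to 34.5 CPM in vehicle, but did not all run the same way. F13a1 and Siglec1 averaged 23.8 and 18.9 CPM in D2C7-IT and 6.87 and 5.46 CPM in vehicle. Lyve1 and Cd163 averaged lower in D2C7-IT, at 1.47 and 5.49 CPM, against 1.85 and 6.22 CPM in vehicle. Of 10 microglia markers 6 were higher in D2C7-IT, with a median log2 fold change of 0.11. Cycling tumour markers summed to 90.6 to 115 CPM in D2C7-IT and 23.7 to 156 CPM in vehicle, and red cell markers to 25.8 to 44.6 CPM in D2C7-IT and 24.2 to 96.2 CPM in vehicle. The part of these cells in the members' values was not tested.

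The monocyte genes were higher in D2C7-IT tumours at day 0 for 8 of 9 members, with a median log2 fold change of 1.54, and 6 of 9 did not overlap. Ms4a4c, a membrane protein of the MS4A family, was at 8.20, 9.72 and 8.27 CPM in D2C7-IT, against 3.56, 1.35 and 0.405 CPM in vehicle (2.23 ± 1.19). Plac8, a small cysteine-rich protein of blood monocytes, was at 8.65, 7.99 and 4.37 CPM in D2C7-IT, against 3.03, 1.43 and 0.405 CPM in vehicle (2.03 ± 1.03). Each of these groups was fully separated. Emilin2, a matrix glycoprotein, was at 12, 15.1 and 13.5 CPM in D2C7-IT, against 6.22, 4.09 and 3.00 CPM in vehicle (log2 fold change 1.54 ± 0.64, adjusted p = 0.94). Ms4a6c, a further MS4A gene, was at 14.4, 14.9 and 18.8 CPM in D2C7-IT, against 11, 3.10 and 1.17 CPM in vehicle, and Ifitm6, of the interferon-induced transmembrane family, was at 1.16, 0.920 and 0.531 CPM in D2C7-IT and 0.323, 0.431 and 0.162 CPM in vehicle. Both were separate, by a small margin for Ifitm6. Ly6c2, the gene of the classical monocyte antigen Ly6C, stood at 9.68, 8.68 and 4.84 CPM in D2C7-IT and 4.85, 1.10 and 1.17 CPM in vehicle, so that the lowest D2C7-IT tumour met the highest vehicle tumour. Vcan, the matrix proteoglycan versican, was the member without a higher level, at 30.1, 32.8 and 28.5 CPM in D2C7-IT and 50.5, 24.8 and 20.7 CPM in vehicle (-0.14 ± 0.76).

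General macrophage genes had a median log2 fold change of 1.40 but overlapped in 4 of 5 cases, each time with vehicle replicate 1 above the lowest D2C7-IT tumour. Adgre1, which encodes F4/80, was at 30.6, 35.9 and 62.2 CPM in D2C7-IT, against 70.3, 14.9 and 9.35 CPM in vehicle. Lyz2 was at 123, 187 and 347 CPM in D2C7-IT and 168, 44.4 and 27.4 CPM in vehicle. Ms4a4a was the macrophage gene whose groups were separate, at 2.98, 4.79 and 6.59 CPM in D2C7-IT, against 1.39, 0.700 and 0.445 CPM in vehicle (2.43 ± 1.07). Among the oxidase subunits, Cyba, Ncf1 and Ncf4 were separate and Cybb was not. Ncf1, the organizer subunit in the cytosol, was at 55.5, 57.8 and 69.3 CPM in D2C7-IT, against 46.3, 20.8 and 11.7 CPM in vehicle (1.15 ± 0.64). Cyba, the membrane partner of Cybb, was at 29.6, 40.4 and 49.0 CPM in D2C7-IT, against 24.9, 14.6 and 8.06 CPM in vehicle (1.26 ± 0.66). Ncf4, a cytosolic subunit that binds phosphoinositides, was at 8.20, 8.89 and 9.40 CPM in D2C7-IT, against 6.08, 2.94 and 0.810 CPM in vehicle (1.37 ± 0.83). These 3 subunits had their lowest D2C7-IT tumour above vehicle replicate 1, the highest of the vehicle tumours. For Cybb, the levels were 31.5, 45.2 and 55.4 CPM in D2C7-IT and 31.9, 8.14 and 3.89 CPM in vehicle (1.53 ± 1.06), an overlap by 1 tumour. Of the lipid and damage genes, Lgals3 (galectin-3) was separate, at 14.8, 25.0 and 31.9 CPM in D2C7-IT, against 10.8, 3.34 and 0.972 CPM in vehicle. Gpnmb, Spp1 and Fabp5 overlapped. Slpi, an inhibitor of neutrophil elastase, was at 1.00, 1.21 and 1.59 CPM in D2C7-IT, against 0.277, 0.404 and 0.405 CPM in vehicle (1.74 ± 0.70, adjusted p = 0.91).

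The chemokines Ccl2 and Ccl7, which draw monocytes, had larger log2 fold changes than any member for which one is given. Ccl2 stood at 80.2, 122 and 110 CPM in D2C7-IT, against 4.39, 1.99 and 0.243 CPM in vehicle at day 0, with a log2 fold change of 5.49 ± 1.32 (edgeR adjusted p = 0.20). Ccl7, also a CCR2 ligand, was at 29.8, 45.8 and 44.9 CPM in D2C7-IT and 0.993, 1.83 and 0.243 CPM in vehicle (5.22 ± 1.24, adjusted p = 0.19). Their receptor Ccr2 was at 14.0, 15.5 and 17.0 CPM in D2C7-IT, against 6.33, 2.15 and 1.05 CPM in vehicle. Every one of these tumours in D2C7-IT lay above every vehicle tumour. Icam1, which holds leukocytes to the vessel wall, reached 69.7, 153 and 147 CPM in D2C7-IT and 14.1, 7.38 and 3.40 CPM in vehicle (3.84 ± 0.84, adjusted p = 0.11). Of 22 genes of monocyte recruitment 17 were higher in D2C7-IT, 11 without overlap and 2 lower without overlap, with a median of 0.75. Of 17 other sensing receptors tested 16 were higher (median 0.94), of 10 other oxidase subunits and adaptors 10 (median 0.62), and of 15 lysosome genes 14 (median 0.35). edgeR called 0 genes of these 4 lists.

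aCD40 alone did not separate from vehicle at day 0. The fitted level was higher in aCD40 for 31 of 34 members, with a median of 0.81 against 0.00 over all genes, but this rested on replicate 3. Without that tumour the median was -0.14, with 12 of 34 higher. Vehicle replicate 1, the highest vehicle tumour for 31 of 34 members, was kept there, and leaving out both was not tested. The members' mean log2(CPM + 1) was 2.32, 2.56 and 4.05 in aCD40 replicates 1 to 3 and 3.20, 2.35 and 1.85 in vehicle replicates 1 to 3. Clec4n and Trem3 were the 2 members whose groups did not overlap (5.1% of all genes were higher without overlap). edgeR called 0 members and 0% of all genes, DESeq2 called 0 members, and 2 members had an unadjusted p under 0.05 with a higher level (0.929% of all genes). Gpnmb shows the spread, at 5.25, 8.93 and 155 CPM in aCD40 and 51.2, 10.5 and 4.53 CPM in vehicle. Cybb did too, at 7.09, 9.27 and 84.8 CPM in aCD40 and 31.9, 8.14 and 3.89 CPM in vehicle.

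In D2C7-IT+aCD40 at day 0 few members separated from vehicle, and most had lower values than in D2C7-IT alone. Against vehicle, 24 of 34 were higher, with a median of 0.54, and 5 did not overlap (6% of all genes), namely Plac8, Ifitm6, Clec4e, Trem3 and Slpi. edgeR called 0 members and 0% of all genes, DESeq2 called 0 members, and an unadjusted p was under 0.05 for 1 member, Clec4e (1.86% of all genes were so and higher). Clec4e was at 0.937, 5.97 and 1.86 CPM in D2C7-IT+aCD40, against 0.531, 0 and 0.0810 CPM in vehicle (log2 fold change 3.71 ± 1.30). The 16 Trem3 counts in D2C7-IT+aCD40, against 3 in vehicle, gave a ratio of 4.69 with an exact 95% interval of 1.34 to 25.1. Against aCD40 alone, 10 of 34 members were higher in D2C7-IT+aCD40 (median -0.28), and without aCD40 replicate 3 this was 30 of 34 (median 0.66). edgeR called 0 members and 0% of all genes there, DESeq2 0 members, and 0 had an unadjusted p under 0.05.

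Against D2C7-IT alone at day 0, D2C7-IT+aCD40 had lower fitted levels for 33 of 34 members, with a median log2 fold change of -1.09, against 0.02 over all genes. For 17 members every D2C7-IT+aCD40 tumour lay below every D2C7-IT tumour, against 10.1% of all genes. Ms4a4a was at 0.228, 0.820 and 0.224 CPM in D2C7-IT+aCD40, against 2.98, 4.79 and 6.59 CPM in D2C7-IT (-3.46 ± 1.13, edgeR adjusted p = 1). Ms4a7, another MS4A gene of macrophages, was at 0.810, 3.25 and 1.43 CPM in D2C7-IT+aCD40, against 5.93, 9.05 and 17.2 CPM in D2C7-IT (-2.52 ± 1.22). Clec4n was at 1.34, 1.72 and 0.874 CPM in D2C7-IT+aCD40, against 3.06, 6.04 and 4.06 CPM in D2C7-IT. All of these were separate groups, and the 6 separated receptors of 11 and 6 separated monocyte genes of 9 made up most of the count. No gene of the whole table passed edgeR's test here (0%), DESeq2 called 0 members, and 1 member, Ms4a4a, had an unadjusted p under 0.05 with a lower level (1.6% of all genes). The median ranged from -1.63 to -0.82 as single tumours were left out or settings changed. The 3 D2C7-IT+aCD40 tumours were uneven, with replicate 2 the highest of the group for 28 of 34 members.

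Markers of several other cells were lower in D2C7-IT+aCD40 as well. The sum of border macrophage markers was 16.6 to 20.2 CPM in D2C7-IT+aCD40 and 53.3 to 82.9 CPM in D2C7-IT, and 6 of 7 markers were lower without overlap. Neutrophil markers had a median log2 fold change of -1.09, with 7 of 10 lower without overlap, and microglia markers one of -0.11. Cycling tumour markers summed to 27.5 to 65.5 CPM in D2C7-IT+aCD40 and 90.6 to 115 CPM in D2C7-IT, with 5 of 5 lower without overlap. Red cell markers summed to 12.9 to 23.9 CPM in D2C7-IT+aCD40 and 25.8 to 44.6 CPM in D2C7-IT, with 4 of 5 lower without overlap. Of the 22 recruitment genes, 9 were lower without overlap in D2C7-IT+aCD40 (median -0.53). Ccl2 was at 5.34, 52.8 and 10.3 CPM in D2C7-IT+aCD40, against 80.2, 122 and 110 CPM in D2C7-IT. The part of these cell types in the members' difference was not tested.

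At day 3, several monocyte and receptor genes had higher values in D2C7-IT+aCD40 than in D2C7-IT tumours. Neither group held any of the 3 libraries that stood apart, but those libraries enter the spread behind each SE and p. The fitted level was higher for 26 of 34 members, with a median log2 fold change of 0.48, against -0.01 over all genes. For 12 members every D2C7-IT+aCD40 tumour lay above every D2C7-IT tumour, against 8.34% of all genes. They were Ly6c2, Plac8, Ms4a4c, Ms4a6c, Ifitm6, Cybb, Ncf1, Clec4e, Clec4n, Fpr1, Fpr2 and Pilra. Ly6c2 was at 6.67, 10.9 and 7.17 CPM in D2C7-IT+aCD40, against 0.568, 0.990 and 2.49 CPM in D2C7-IT (2.54 ± 1.20, edgeR adjusted p = 1). Plac8 was at 6.41, 13.5 and 6.49 CPM in D2C7-IT+aCD40, against 1.52, 0.792 and 1.87 CPM in D2C7-IT (2.57 ± 1.05). Clec4e was at 3.07, 6.27 and 3.02 CPM in D2C7-IT+aCD40, against 0.826, 0.429 and 0.665 CPM in D2C7-IT (2.59 ± 1.19). The gap between the groups was wide for each of these. Ly6c1, whose reads may be mixed with those of Ly6c2, was separate too. It was at 43.9, 50.1 and 47.2 CPM in D2C7-IT+aCD40 and 24.3, 32.7 and 35.8 CPM in D2C7-IT, and its part in the Ly6c2 values was not tested. Cybb was closer, at 27.8, 68.3 and 53.4 CPM in D2C7-IT+aCD40 and 10.8, 21.9 and 25.1 CPM in D2C7-IT. edgeR called 0 members and 0% of all genes, 4 members had an unadjusted p under 0.05 with a higher level (1.44% of all genes), and DESeq2 called 0 members. When D2C7-IT+aCD40 and D2C7-IT were fitted alone, edgeR called 0 members and 19 of all genes (0.0934%).

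The macrophage and lipid genes did not share that order. Gpnmb stood at 10.8, 77.5 and 53.4 CPM in D2C7-IT+aCD40 and 52.1, 131 and 224 CPM in D2C7-IT at day 3. Adgre1 was at 23.6, 37.8 and 34.8 CPM in D2C7-IT+aCD40 and 19.3, 26.6 and 31.8 CPM in D2C7-IT. Both overlapped, and the median log2 fold changes were -0.40 over the 4 lipid and damage genes and -0.20 over the 5 macrophage genes, against 0.66 over the 9 monocyte genes. Whether the roles differ was not tested. Among the recruitment genes 7 of 22 were higher without overlap and 1 lower. Ccl8, a further monocyte chemokine, was at 3.51, 3.31 and 3.53 CPM in D2C7-IT+aCD40, against 0.852, 0.561 and 0.977 CPM in D2C7-IT (2.03 ± 0.55, adjusted p = 1). T cell markers were higher too, 6 of 7 without overlap (median 1.41), and microglia markers had a median of -0.09. Cycling tumour markers summed to 45.5 to 63.5 CPM in D2C7-IT+aCD40 and 42.3 to 80.5 CPM in D2C7-IT, and red cell markers to 65.6 to 166 CPM in D2C7-IT+aCD40 and 37.2 to 104 CPM in D2C7-IT. The part of these cells in the members' values was not tested.

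**Figure D3:**
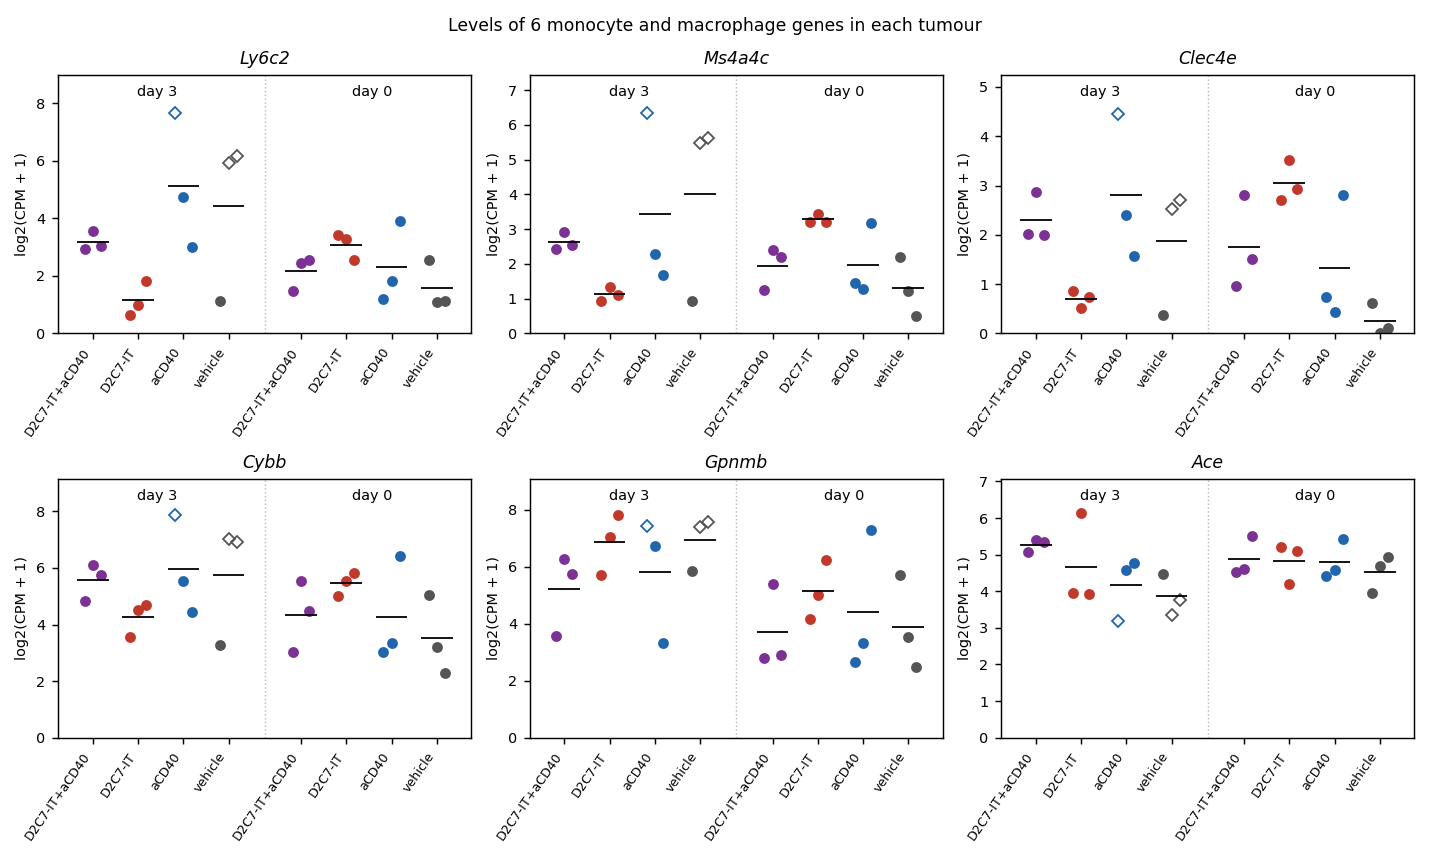
Levels of 6 members, Ly6c2, Ms4a4c, Clec4e, Cybb, Gpnmb and Ace, as log2(CPM + 1) in each tumour, with day 3 groups left of day 0 groups and a bar at the mean of 3 tumours. Open diamonds are the 3 libraries with high Egfr, which reach 60.0 to 200 CPM of Ly6c2 and hold 8.16 to 12.6 CPM of Ace.

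Against vehicle at day 3, the direction of most members depended on the 3 libraries. With them, 31 of 34 members were lower in D2C7-IT than in vehicle tumours, with a median log2 fold change of -1.38. Without them, which left vehicle replicate 1 alone, 33 of 34 were higher, with a median of 0.94. Plac8 was at 1.52, 0.792 and 1.87 CPM in D2C7-IT, against 1.36, 42.5 and 42.0 CPM in vehicle. Its log2 fold change was -4.29 ± 1.12 (edgeR adjusted p = 0.080), and 0.05 without the 3 libraries. For Ly6c2 the D2C7-IT tumours held 0.568, 0.990 and 2.49 CPM and the vehicle tumours 1.20, 60.0 and 70.7 CPM (-4.97 ± 1.33, adjusted p = 0.080, and 0.17 without the 3 libraries). Fn1, which encodes the matrix protein fibronectin, was at 145, 126 and 129 CPM in D2C7-IT and 81.0, 834 and 677 CPM in vehicle (-1.93 ± 0.63, adjusted p = 0.085, and 0.73 without the 3 libraries). The D2C7-IT values of Plac8 and Ly6c2 thus lay near that of vehicle replicate 1, which was the lowest vehicle tumour for 33 of 34 members. Gpnmb was at 52.1, 131 and 224 CPM in D2C7-IT and 56.9, 167 and 190 CPM in vehicle, a difference of 0.01 ± 1.20, and Cd14 at 32.7, 15.9 and 9.91 CPM in D2C7-IT and 6.08, 15.7 and 14.4 CPM in vehicle (0.77 ± 0.64). Trem3 was the 1 member lower without overlap (5.24% of all genes), at 0.0258, 0.0660 and 0.104 CPM in D2C7-IT and 0.133, 0.429 and 0.615 CPM in vehicle. edgeR called 0 members and 0% of all genes. An unadjusted p under 0.05 was found for 10 members with a lower level, against 18.3% of all genes, and for Ace with a higher one, against 9.96%. DESeq2 called 5 members (15.2% of the 33 it gave an adjusted p) and 11.2% of all genes. Without vehicle replicate 1, edgeR called 13 members (38.2%), near the 35.7% of all genes it called there.

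D2C7-IT+aCD40 showed the same dependence. Against vehicle at day 3, 27 of 34 members were lower in D2C7-IT+aCD40, with a median of -0.86. Without the 3 libraries, which left vehicle replicate 1 alone, 32 of 34 were higher, with a median of 1.75. That tumour was the lowest of the vehicle tumours for 33 of 34 members. Vcan was at 24.5, 26.2 and 29.0 CPM in D2C7-IT+aCD40, against 21.9, 250 and 236 CPM in vehicle (-2.69 ± 0.81, adjusted p = 0.11, and 0.23 without them). edgeR called 0 members, where it called 0.0404% of all genes. There 5 members had an unadjusted p under 0.05 with a lower level, against 16.9% of all genes, and 1, Ace, with a higher one, against 7.09%. DESeq2 called 1 member, Vcan, and 7.17% of all genes. Without vehicle replicate 1, edgeR called 6 members (17.6%), against 30.1% of all genes. Against aCD40 at day 3 the median was -1.16, with 31 of 34 lower in D2C7-IT+aCD40, and 0.57 without aCD40 replicate 1, with 30 of 34 higher. edgeR called 0 members and 0% of all genes there, and DESeq2 called 1, Slpi, and 0.863% of all genes. An unadjusted p was under 0.05 for 4 members with a lower level, against 7.42% of all genes, and for Ace with a higher one, against 3.66%. Between aCD40 and vehicle the median was 0.10 with all tumours, -1.36 without aCD40 replicate 1 and 0.93 without the 3 libraries. edgeR called 0 members and 0% of all genes, DESeq2 0 members, and 1 had an unadjusted p under 0.05 with a higher level (1.52% of all genes).

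Ace, the angiotensin-converting enzyme that marks non-classical monocytes and is also made by endothelium and choroid plexus, was the 1 member below all other tumours in the 3 libraries with high Egfr. At day 3 it was at 32.7, 41.5 and 39.7 CPM in D2C7-IT+aCD40, 14.4, 69.5 and 14.1 CPM in D2C7-IT, 8.16, 22.7 and 26.3 CPM in aCD40 and 21.3, 9.15 and 12.6 CPM in vehicle. D2C7-IT+aCD40 was separate from vehicle (1.36 ± 0.57, adjusted p = 0.16), as 9.78% of all genes were higher without overlap. It was also separate from aCD40 (5.79% of all genes).

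Slpi was highest in 2 aCD40 tumours. At day 3 it was at 11.4, 9.67 and 0.928 CPM in aCD40, against 0.534, 2.17 and 0.775 CPM in vehicle, so that 2 of 3 aCD40 tumours were above all vehicle tumours, 1 of which was not among the libraries with high Egfr. The log2 fold change was 2.66 ± 0.68 (edgeR adjusted p = 0.60). D2C7-IT+aCD40 tumours held 0.853, 2.5 and 0.951 CPM at day 3, which gave -2.40 ± 0.68 against aCD40 (edgeR adjusted p = 0.25). Within aCD40 the day 0 tumours held 0.358, 0.440 and 0.805 CPM, and day 3 over day 0 was 3.76 ± 0.72 (edgeR adjusted p = 0.072, DESeq2 adjusted p = 2.9e-05). Slpi was the 1 member whose aCD40 groups did not overlap between days (5.23% of all genes).

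From day 0 to day 3 the 2 groups that received D2C7-IT differed in direction for most members. In D2C7-IT tumours 27 of 34 members were lower at day 3, with a median log2 fold change of -0.92 against 0.01 over all genes, and 18 were lower without overlap, against 7.42% of all genes. Clec4e was at 0.826, 0.429 and 0.665 CPM at day 3, against 5.56, 10.4 and 6.62 CPM at day 0 (-3.50 ± 1.23, edgeR adjusted p = 1). Ms4a4c was at 0.904, 1.52 and 1.14 CPM at day 3, against 8.20, 9.72 and 8.27 CPM at day 0 (-2.84 ± 1.22). Fpr2 was at 0.284, 0.429 and 0.353 CPM at day 3, against 1.37, 2.13 and 1.75 CPM at day 0 (-2.26 ± 1.06). In each case the days were widely apart. Msr1 was at 3.43, 4.89 and 3.37 CPM at day 3, against 7.25, 12.5 and 13.4 CPM at day 0, and Ncf1 at 24.5, 29.2 and 34.1 CPM at day 3, against 55.5, 57.8 and 69.3 CPM at day 0, again without overlap. edgeR called 0 members, where it called 0.00449% of all genes, 6 members had an unadjusted p under 0.05 with a lower level (1.06% of all genes), and DESeq2 called 0 members. When the 2 groups were fitted alone, edgeR called 3 members, Ms4a4c (adjusted p = 0.026) and Clec4e (adjusted p = 0.035) among them, and 37 of all genes (0.186%).

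The lipid and damage genes did not follow, and all 4 had higher fitted levels in D2C7-IT at day 3 than at day 0, with overlap. Gpnmb was at 52.1, 131 and 224 CPM at day 3 and 17.1, 30.9 and 75.3 CPM at day 0 (1.73 ± 1.24). Spp1 was at 63.1, 92.8 and 173 CPM at day 3 and 33.9, 26.2 and 101 CPM at day 0 (1.04 ± 0.83). The highest day 0 tumour lay within the day 3 range in both. Cd68, a lysosomal glycoprotein of macrophages, was at 30.4, 41.5 and 52.3 CPM at day 3 and 26.4, 36.6 and 50.3 CPM at day 0. Of 15 lysosome genes 13 were higher at day 3 in D2C7-IT (median 0.25), as were 7 of 10 microglia markers (median 0.19). Of 22 recruitment genes 19 were lower, 10 without overlap. Ccl2 held 22.1, 14.4 and 19.5 CPM at day 3, against 80.2, 122 and 110 CPM at day 0, and Ccr2 1.96, 1.62 and 3.93 CPM at day 3, against 14.0, 15.5 and 17.0 CPM at day 0. Border macrophage markers summed to 16.8 to 23.8 CPM at day 3 and 53.3 to 82.9 CPM at day 0, with 6 of 7 lower without overlap. Of 10 neutrophil markers 9 were lower at day 3, 4 of them without overlap (median -0.70). Cxcr2 had the smallest p, with a log2 fold change of -4.22 ± 0.93 (edgeR adjusted p = 0.76). Cycling tumour markers summed to 42.3 to 80.5 CPM at day 3 and 90.6 to 115 CPM at day 0, with 2 of 5 lower without overlap, and red cell markers to 37.2 to 104 CPM at day 3 and 25.8 to 44.6 CPM at day 0. The part of these cells in the members' values was not tested.

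In D2C7-IT+aCD40 tumours 32 of 34 members were higher at day 3 than at day 0, with a median of 0.85 against -0.01 over all genes. For 9 members the days did not overlap with day 3 higher (8.33% of all genes), and for Fpr1 with day 3 lower (4.11% of all genes). Several gaps were narrow, as for Slpi, Cd300lf and Fpr2. Spp1 was at 41.9, 118 and 88.8 CPM at day 3, against 11.5, 32.3 and 15.0 CPM at day 0 (1.99 ± 0.85, edgeR adjusted p = 0.99). Fabp5 was at 68.3, 90.7 and 87.3 CPM at day 3, against 49.5, 58.0 and 55.4 CPM at day 0 (0.51 ± 0.20, edgeR adjusted p = 0.94). Lyz2 was at 140, 344 and 296 CPM at day 3, against 43.6, 116 and 81.9 CPM at day 0. These 3 were separate between days. edgeR called 0 members and 0% of all genes, DESeq2 called 0 members, and 2 had an unadjusted p under 0.05 with a higher level (3.15% of all genes). For Clec4e, the day 3 minus day 0 change differed between D2C7-IT+aCD40 and D2C7-IT by 3.92 ± 1.64 on the log2 scale (edgeR adjusted p = 1). edgeR called 0 genes for that difference. Red cell markers summed to 65.6 to 166 CPM at day 3 and 12.9 to 23.9 CPM at day 0 in D2C7-IT+aCD40, with 5 of 5 higher without overlap (median 2.46). Neutrophil markers had a median of 0.52, with 3 of 10 higher without overlap, and cycling tumour markers summed to 45.5 to 63.5 CPM at day 3 and 27.5 to 65.5 CPM at day 0. The part of blood left in the tissue, and of these cells, in the members' values was not tested.

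**Figure D4:**
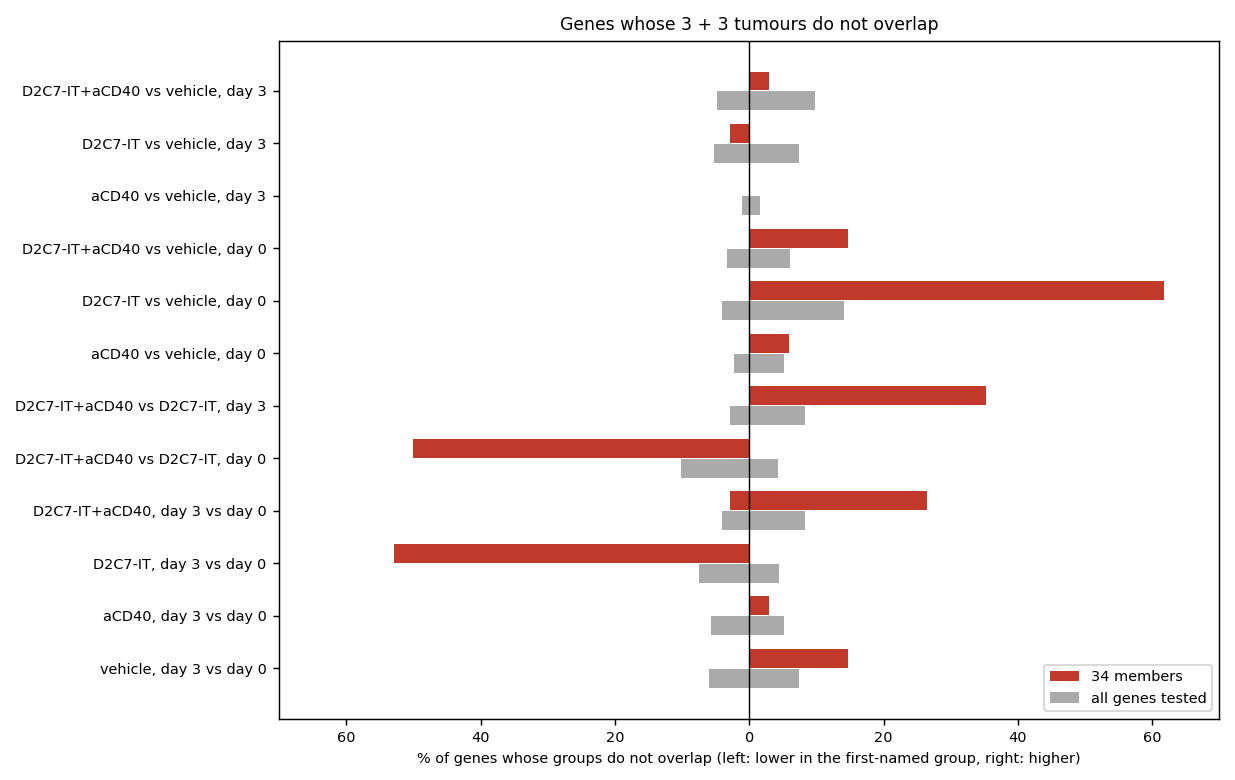
Share of the 34 members (red) and of all genes tested (grey) whose 3 tumours of the first-named group all lay below (left) or above (right) the 3 tumours of the other group, in percent, for 12 comparisons. The members stand at 61.8% higher in D2C7-IT against vehicle at day 0, 50% lower in D2C7-IT+aCD40 against D2C7-IT at day 0, 52.9% lower in D2C7-IT at day 3 against day 0 and 35.3% higher in D2C7-IT+aCD40 against D2C7-IT at day 3.

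In vehicle and aCD40 tumours the day difference rested on the 3 libraries. In vehicle 32 of 34 members were higher at day 3 (median 2.37), and 5 did not overlap (7.35% of all genes), but without the 3 libraries the median was -0.47, with 11 of 34 higher. edgeR called 0 members and 0% of all genes, and DESeq2 called 16 members and 11.2% of all genes. An unadjusted p under 0.05 was found for 25 members, against 30.2% of all genes (22% with a higher level). In aCD40 33 of 34 were higher at day 3 (median 1.54), and without aCD40 replicate 1 the median was -0.21, with 13 of 34 higher. edgeR called 0 members, where it called 0.0583% of all genes, and DESeq2 called 2, Slpi and Plac8, and 0.525% of all genes. There 10 members had an unadjusted p under 0.05, against 11.6% of all genes (9.52% with a higher level).

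The D2C7-IT effect over vehicle, at day 3 minus at day 0, was below 0 for 33 of 34 members, with a median of -2.78 on the log2 scale. Plac8 had the smallest p, at -6.32 ± 1.52, followed by Clec4e at -7.42 ± 1.80 and Ms4a4c at -6.88 ± 1.76 (edgeR adjusted p = 0.28 each). edgeR called 0 members and 0% of all genes, and DESeq2 called 6 members and 0.492% of all genes. For 23 members the unadjusted p was under 0.05 with a value below 0, against 12.2% of all genes (17.6% in either direction). Without the 3 libraries the median was -0.31, with 12 of 34 above 0, so that this difference rested on them.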

How the data were processed

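The authors deposited whole-number counts of reads per gene for each of 24 tumours, and these counts were used as deposited. Per the submitters' processing notes, reads passed through bcl2fastq 2.17 and Trimmomatic 0.36, were aligned with STAR 2.5.2b to GRCm38, and were counted by featureCounts (Subread 1.5.2). No source used here gives the annotation release or strand setting. Gene names came from GENCODE M21, which named 49056 of 49315 IDs. Repeated columns held the same values and were used once. No pair of replicates agreed within sampling noise. The labels name separate tumours as replicates, so the spread is that between tumours.

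CPM is the count scaled to a library total of 1000000; totals were 24697576 to 48119840. Tests used edgeR 4.0.16 (R 4.3.3) with TMM scaling, filterByExpr, 8 group means over 24 libraries, robust quasi-likelihood fits with 16 residual degrees of freedom, and Benjamini-Hochberg adjustment over 22280 genes at 0.05. The SE is the log2 fold change divided by the root of F. The common biological coefficient of variation was 0.412, and 3 tumours a group limit what can be called. Alternatives were DESeq2 1.42.0, its size factors, no filter, only the groups compared, a replicate block and leaving out each tumour. Genes named are those with the smallest p in a comparison, plus members of each role. The members and lists were chosen with earlier results of these data known. The fits were tested on simulated counts. DESeq2 gave an adjusted p to 32 or 33 of the 34 members.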

Additional observations from a re-analysis of the deposited data

Results flagged for a closer look

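Of the members, 4 stood on opposite sides of 0 between D2C7-IT+aCD40 and D2C7-IT in the change at day 3 over day 0, with every tumour on its own side. The log2 change was 1.10 in D2C7-IT+aCD40 and -2.49 in D2C7-IT for Ly6c2, and 0.70 in D2C7-IT+aCD40 and -2.84 in D2C7-IT for Ms4a4c. It was 1.09 in D2C7-IT+aCD40 and -1.68 in D2C7-IT for Clec4n, and 0.53 in D2C7-IT+aCD40 and -2.26 in D2C7-IT for Fpr2. The difference between the changes was 3.59 ± 1.65, 3.54 ± 1.66, 2.77 ± 1.22 and 2.80 ± 1.44 in that order (SE, edgeR adjusted p = 1 each), so none passed the test. The Ly6c2 values are uncertain, since its reads may be mixed with those of Ly6c1. Trem3, at very low counts, was -2.46 for D2C7-IT over vehicle at day 3 and higher in D2C7-IT at day 0, where 35 counts faced 3. Trem3 was also -2.05 at day 3 over day 0 in D2C7-IT, whereas vehicle had 46 counts at day 3 and 3 at day 0, a ratio of 13.8 (exact 95% interval 4.43 to 69.3, counting error only). The difference had an edgeR adjusted p of 0.28. Vehicle replicates 2 and 3 at day 3 are among the 3 libraries with high Egfr. Those libraries held 0.429 to 1.30 CPM of Trem3, against 0 to 0.355 CPM in the other 21. No Trem3 change without them is given here.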

How the results depend on the processing

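Medians of the 34 members kept their direction under every alternative for D2C7-IT over vehicle at day 0 (1.15 to 2.61), D2C7-IT+aCD40 over D2C7-IT at day 0 (-1.63 to -0.82) and D2C7-IT at day 3 over day 0 (-1.09 to -0.80). With 3 tumours a group and libraries that stand apart, calls moved with the tool and with single tumours, and the cause was not tested. Without the 3 libraries with high Egfr, chosen after the data were seen, signs turned for D2C7-IT over vehicle at day 3 (Plac8 0.053, Ly6c2 0.17, Ms4a4c 0.39, Fn1 0.73), D2C7-IT+aCD40 over vehicle at day 3 (Vcan 0.23, Fn1 0.93, Ms4a7 1.48), D2C7-IT+aCD40 over aCD40 at day 3 (Vcan 0.14) and vehicle at day 3 over day 0 (Plac8 -0.30, Fn1 -0.53), and 0 genes were called for D2C7-IT+aCD40 over vehicle at day 3 and for aCD40 at day 3 over day 0. As single tumours were left out, Fpr2 ranged from -1.32 (without aCD40 replicate 1) to 1.86 for aCD40 over vehicle at day 3, Vcan from -2.38 to 0.14 (without aCD40 replicate 1) for D2C7-IT+aCD40 over aCD40 at day 3, and Lyz2 from -1.60 to 0.24 (without aCD40 replicate 3) at day 0.

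DESeq2's Wald test called 133 genes and 1 member for D2C7-IT over vehicle at day 0, 23 genes for D2C7-IT+aCD40 and 17 for aCD40 over vehicle. At day 3 it called 1601 genes and 1 member for D2C7-IT+aCD40, 2671 genes and 5 members for D2C7-IT, and 34 genes for aCD40 over vehicle. It called 17 genes at day 0 and 3 at day 3 for D2C7-IT+aCD40 over D2C7-IT, and 6 genes at day 0, and 212 genes and 1 member at day 3, over aCD40. For day 3 over day 0 it called 59 genes in D2C7-IT+aCD40, 24 in D2C7-IT, 129 genes and 2 members in aCD40, and 2336 genes and 16 members in vehicle, and for the day difference of the D2C7-IT effect 99 genes and 6 members. Without the filter on low counts edgeR called 3 genes for D2C7-IT+aCD40 over aCD40 at day 3 and 7 for aCD40 at day 3 over day 0. With only the groups compared it called 87 genes and 1 member (Trem1, adjusted p = 0.034) for D2C7-IT over vehicle at day 0, 0 genes for D2C7-IT+aCD40 over vehicle at day 3, 19 for D2C7-IT+aCD40 over D2C7-IT at day 3, 0 for aCD40 and 37 genes and 3 members for D2C7-IT at day 3 over day 0.

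Replicate numbers did not pair the tumours: no comparison had all 3 same-number correlations over 0.1. With the replicate block, 9 genes were called for D2C7-IT over vehicle at day 0.

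Leaving out 1 tumour at a time gave 0 to 2 genes for D2C7-IT over vehicle and 0 to 4 for aCD40 over vehicle at day 0. At day 3 it gave 0 to 6925 genes and 0 to 6 members for D2C7-IT+aCD40, 0 to 8203 genes and 0 to 13 members for D2C7-IT, and 0 to 1364 genes and 0 to 2 members for aCD40 over vehicle, and 0 to 88 genes and 0 to 1 member for D2C7-IT+aCD40 over aCD40. For day 3 over day 0 it gave 0 to 42 genes in D2C7-IT+aCD40, 0 to 14 in D2C7-IT, 0 to 94 genes and 0 to 1 member in aCD40, and 0 to 9451 genes and 0 to 26 members in vehicle. For the day difference of the D2C7-IT effect it gave 0 to 3703 genes and 0 to 16 members.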
